A study of Mus musculus with 65 samples.

Results

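The genes described here encode the nuclear subunits of the mitochondrial respiratory chain. Members were taken by symbol from the protein-coding genes of a RefSeq table for mm10, as Ndufa, Ndufb, Ndufc, Ndufs or Ndufv followed by digits alone, Sdha to Sdhd, and all symbols starting with Uqcr, Cox4 to Cox8 or Atp5. This gave 84 genes. For 79 of them a transcription start site (TSS) region of the deposited table lay within 1000 bp of the gene start, among 18217 protein-coding genes so paired and 31995 TSS regions in all. The 79 genes belong to complex I (35), complex II (4), complex III (8), complex IV (16) and complex V (16). Symbols with no TSS region within reach are left out, except from the counts of letters in promoter sequences. Cox7a2l carries a complex IV symbol and is known as a factor that joins complexes III and IV.

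The respiratory chain moves electrons from NADH and succinate through complexes I, II and III to complex IV, which passes them to oxygen, while complex V uses the resulting proton gradient to make ATP. Its nuclear genes are expressed in nearly all cells, mostly from CpG-rich promoters, and some complex IV subunits have second copies that are used in muscle, lung or testis. When a replication fork passes a promoter, its nucleosomes and bound factors are displaced and have to be set up again on both daughter strands.

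Accessibility was measured by repli-ATAC-seq in E14TG2a, a mouse embryonic stem cell line kept with serum and LIF. New DNA is tagged with the thymidine analogue EdU, open chromatin is cut by the Tn5 transposase, and tagged fragments are captured on beads. All groups of the inhibitor experiment received 20 uM EdU for 10 min after 2 h in DMSO (the solvent), in DRB, an inhibitor of the kinase that releases paused RNA polymerase II, or in triptolide, an inhibitor of transcription initiation through TFIIH. Cells were taken at once (nascent) or after 2 h in 10 uM thymidine, and for each group the captured (EdU) and the uncaptured (unbound) DNA became libraries, with 3 libraries per group and 36 in all. The sources used here give no drug doses and do not say whether cells stayed in the drug for those 2 h. An untreated time series (nascent, 30 min, 1 h and 2 h), steady-state chromatin and a ChIP for RNA polymerase II phosphorylated on serine 5 (S5P) are used through their peak lists. In a separate experiment with 2 libraries per group, 100 EdU-labelled Drosophila S2 cells were added to nascent and 2 h samples. Which libraries stem from separate cultures is not labelled, and p-values therefore rest on the spread among libraries, which may be technical.

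The EdU libraries held 1.30 to 5.55 M reads and the unbound libraries 2.35 to 14.4 M reads. The value of a gene is its RPM, the reads in 1 window of 1 kb at its TSS scaled by the authors to library size, so levels of different genes are per equal length. The median member had 2 to 19 reads per EdU library and 13 to 78 per unbound library, which limits the precision of single genes. All 79 members passed the filter for testing (a read in at least 3 libraries). Of the 8 stem cell markers (such as Pou5f1 and Nanog), all had a nascent peak within 1000 bp of the TSS. The same held for 2 of 7 primitive endoderm, 3 of 6 trophectoderm, 2 of 6 fibroblast and 1 of 6 neural and germ layer markers. Accessibility does not show expression, and in steady-state chromatin 5 of 7, 6 of 6, 5 of 6 and 6 of 6 of these other markers also had a peak.

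Promoters of members on which the results below turn are shown from the RefSeq promoter table (GRCm38.p6, which is mm10), 5′ to 3′ on the strand of the gene and ending at the base before the RefSeq start. The table had an entry for 69 of the 84 members, and 65 of these 69 had a TSS region. Capitals mark exact matches, on either strand, to the letters given in parentheses. Sdhb, the iron-sulfur subunit of complex II, is shown for its large gain after replication (chr4:140961021-140961270, plus strand; NRF1 letters GCGCATGC). Uqcrh, the hinge protein of complex III, is shown for its loss with triptolide in nascent chromatin (chr4:116075071-116075320, minus strand; ETS letters CCGGAAG). Ndufs8, an iron-sulfur subunit of complex I, had the deepest loss with triptolide at 2 h (chr19:3912775-3913024, minus strand; CCAAT). Cox7b2, a testis isoform of complex IV, stands for the promoters with little signal (chr5:71548206-71548455, minus strand; Sp1 letters GGGCGG).
Sdhb: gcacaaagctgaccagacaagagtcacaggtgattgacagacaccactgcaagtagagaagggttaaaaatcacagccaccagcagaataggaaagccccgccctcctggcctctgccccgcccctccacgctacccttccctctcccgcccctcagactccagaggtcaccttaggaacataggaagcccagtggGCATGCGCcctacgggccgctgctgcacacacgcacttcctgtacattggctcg
Uqcrh: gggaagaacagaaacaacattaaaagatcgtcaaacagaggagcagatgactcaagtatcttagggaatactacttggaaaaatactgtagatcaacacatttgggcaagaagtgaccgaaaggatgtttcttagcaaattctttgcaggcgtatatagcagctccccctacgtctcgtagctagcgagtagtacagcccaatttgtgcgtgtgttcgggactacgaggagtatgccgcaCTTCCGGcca
Ndufs8: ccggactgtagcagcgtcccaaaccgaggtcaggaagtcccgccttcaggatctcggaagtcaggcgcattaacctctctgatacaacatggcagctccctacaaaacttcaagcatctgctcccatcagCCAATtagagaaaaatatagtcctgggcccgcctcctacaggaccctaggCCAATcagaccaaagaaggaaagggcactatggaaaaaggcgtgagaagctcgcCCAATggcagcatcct
Cox7b2: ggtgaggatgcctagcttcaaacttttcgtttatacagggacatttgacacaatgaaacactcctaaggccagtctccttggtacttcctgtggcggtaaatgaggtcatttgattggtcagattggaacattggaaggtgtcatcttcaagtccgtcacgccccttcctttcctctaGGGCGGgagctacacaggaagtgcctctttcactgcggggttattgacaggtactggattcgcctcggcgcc

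In 3 members the matches of interest lie at or just after the RefSeq start, and 30 bases around them are shown. Uqcrc1, a core protein of complex III with the largest gain of all members, holds overlapping NRF1 matches on both strands from base 31 to base 40 after the start (chr9:108936667-108936696, plus strand). Ndufs8 holds an ETS match from base 16 to base 22 (chr19:3912742-3912771, minus strand). In Cox8a, the ubiquitous isoform of a small complex IV subunit, an ETS match spans the start (chr19:7217604-7217633, minus strand).
Uqcrc1: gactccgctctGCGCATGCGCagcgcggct
Ndufs8: cttaggctccgcCTTCCGGttgaaccgcat
Cox8a: atttccgaaataCTTCCGGctcgggcgtcc

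Letters known from binding sites of regulators of mitochondrial genes were counted in the full 300 bases around the start (250 before and 50 after). NRF1 letters (GCGCATGC) stood in 10 of 69 member promoters (14.5%), against 3.91% of 14638 promoters of protein-coding genes with a TSS region. YY1 letters (AAGATGGC) stood in 9 (13.0%, against 3.31%), ERR letters (AAGGTCA) in 8 (11.6%, against 3.71%) and ETS letters (CCGGAAG) in 16 (23.2%, against 12.4%). Sp1 letters (GGGCGG) stood in 28 (40.6%, against 48.7%), CCAAT in 30 (43.5%, against 39.1%) and TATAAA in 8 (11.6%, against 13.2%). Both strands were searched. In 69 promoters of mitochondrial ribosomal protein genes the shares were 11.6% (NRF1), 17.4% (YY1), 5.80% (ERR) and 34.8% (ETS). In 64 promoters of cytosolic ribosomal protein genes they were 3.125%, 10.9%, 6.25% and 37.5%. Differences between these lists and the members were not tested. At least 1 of the NRF1, ETS, YY1 and ERR letters stood in 34 of the 69 promoters, and NRF1 and ETS letters together in 5, Sdhb among them. The median GC content was 57.3% in members and 57% in the background, with a median of 19 and 15 CpG. A match is a description of the sequence and not a measured binding site.

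At 28 of the 79 members a protein-coding gene on the other strand starts within 1000 bp, as at Atp5j with Gabpa (which encodes a subunit of an ETS factor), Ndufb5 with Mrpl47, Ndufa7 with Rps28, Sdhd with Timm8b, Uqcrh with Lrrc41 and Atp5pb with Wdr77. In 32 members the window overlaps that of another gene's TSS region. Where windows overlap, reads cannot be assigned to 1 gene, and at the divergent pairs the values belong to the shared promoter. Atp5b, Atp5g2, Ndufs7 and Cox6a2 have no divergent gene. Their windows overlap those of Snord59a, of Mir688, of n-TFgaa3 and n-TNgtt7, and of Itgad.

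Most respiratory chain promoters were listed as accessible in nascent chromatin of the untreated series. A nascent peak lay within 1000 bp of the TSS for 62 of 79 members (78.5%), against 36.1% of all TSS regions and 49.2% of protein-coding genes. Over the lists the count was 68 at 30 min, 69 at 1 h, 73 at 2 h (92.4%, against 50.8% of all TSS regions) and 74 in steady-state chromatin. For all TSS regions the shares in these 4 lists were 42.8%, 45.9%, 50.8% and 56.9%. For protein-coding genes they were 57.3%, 61.2%, 67.0% and 72.5%. An S5P peak lay at 29 members (36.7%), against 18.5% of all TSS regions and 25.7% of protein-coding genes. The lists hold 1 combined list per group with positions only, so they carry no test, and they may differ in depth.

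By complex, all 16 complex V genes had a nascent peak, as did 26 of 35 complex I, 7 of 8 complex III, 3 of 4 complex II and 10 of 16 complex IV genes. Complex IV includes 7 tissue isoforms, and 4 of these had a nascent peak. At 2 h a peak stood at 11 of 16 complex IV genes and at 3 of the 7 tissue isoforms. S5P peaks lay at 9 of 16 complex V and 13 of 35 complex I genes but at 0 of 4 complex II genes. In 57 members a peak stood in all 5 ATAC lists, and 27 of those also had an S5P peak, among them Atp5b, the catalytic subunit of complex V, Ndufs8 and Cox8a.

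Of the 17 members without a nascent peak, 12 had one at 2 h. A peak was first listed at 30 min for 8 of them, including Ndufb11 and Uqcrq, at 1 h for Ndufa10, Ndufb3 and Ndufb4, and at 2 h for Ndufa1. Ndufa9, Cox6a2, Cox6c and Cox8c had no peak in any of the 6 lists, and Cox7b2 had one only in steady state. Cox8b, a muscle isoform, was the only member with a nascent peak and none at 2 h.

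**Figure D1:**
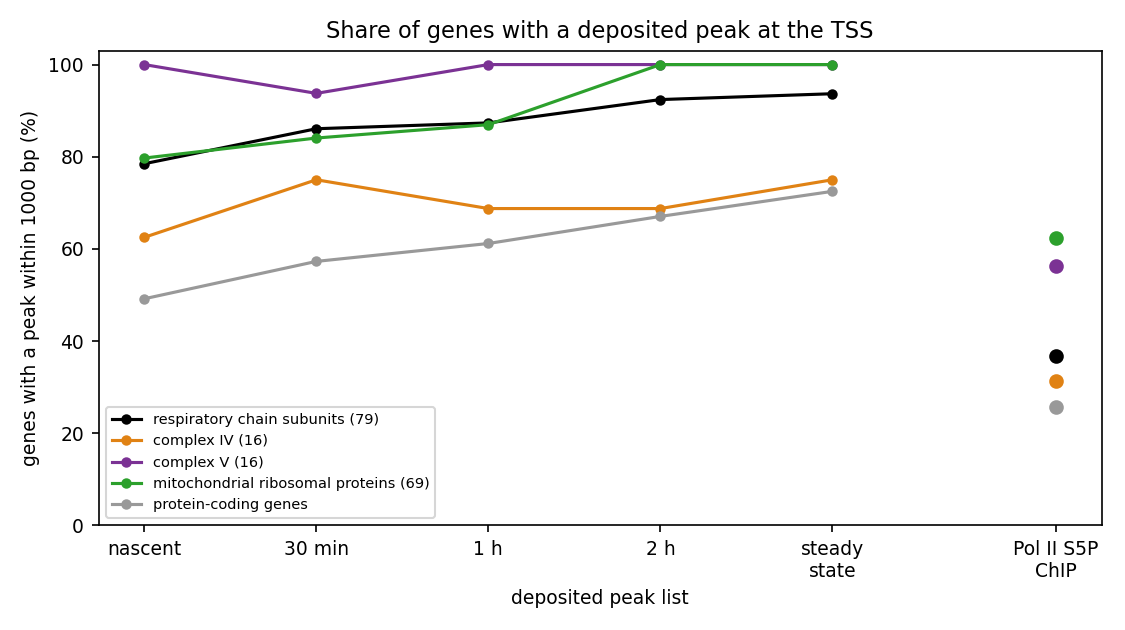
Share of genes with a deposited peak within 1000 bp of the TSS (percent, vertical) in each peak list (horizontal), for the 79 respiratory chain subunits, complexes IV and V, mitochondrial ribosomal proteins and all protein-coding genes. Lines join the lists of the time series, and points at the right are the S5P list. The members' share was 78.5% in the nascent list and 92.4% at 2 h. Complex IV, which includes 7 tissue isoforms, stayed below complex V in every list.

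Mitochondrial ribosomal protein genes, another large nuclear group for the same organelle, had a nascent peak in 55 of 69 cases and an S5P peak in 43 of 69. Cytosolic ribosomal protein genes had 66 of 78 and 72 of 78. Beside these stand 62 and 29 of 79 for the respiratory chain genes, and the differences between the groups were not tested.

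In DMSO the member promoters became more accessible between nascent and 2 h chromatin. The median member stood at 2.31, 2.52 and 2.38 RPM in the 3 nascent EdU libraries and at 5.82, 5.75 and 4.98 RPM in the 3 libraries at 2 h. The groups do not overlap. Of 79 members, 44 rose and 0 fell at an adjusted p under 0.05 (limma, all TSS regions tested together), with a median difference of 0.91 in log2(RPM + 1). Of all 29799 TSS regions tested, 31.2% rose, with a median of 0.34, and protein-coding genes had a median of 0.70. The mean RPM of 20000 background windows moved the other way, from between 0.307 and 0.308 in the nascent libraries to between 0.184 and 0.210 at 2 h, and its part in the result was not tested. The mean of the members was 8.58 to 8.76 times the background in nascent and 27.0 to 35.2 times at 2 h. The summed RPM of stem cell markers was 25.7 to 27.1 in nascent and 77.4 to 86.0 at 2 h. Sums also differed for markers of primitive endoderm (6.92 to 8.58 and then 17.5 to 22.7), trophectoderm (8.07 to 10.6 and 15.9 to 19.6), fibroblasts (6.34 to 8.46 and 20.5 to 23.9) and neural or germ layer cells (9.80 to 12.2 and 30.4 to 33.1), and their part was not tested. In such bulk libraries a change in all cells and a change in a share of the cells cannot be told apart.

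Uqcrc1 was at 1.73, 2.02 and 2.12 RPM in nascent and at 11.3, 11.5 and 8.85 RPM in 2 h chromatin, a log2 difference of 1.96 ± 0.32 (SE, adjusted p = 2.6e-07). Cox8a was at 1.73, 2.52 and 6.35 RPM and then at 16.9, 11.9 and 14.4 RPM (1.88 ± 0.30, adjusted p = 1.5e-07). Neither gene's groups overlap, although the nascent values of Cox8a are wide apart. Ndufb7, an accessory subunit in the membrane arm of complex I, went from 1.73, 1.01 and 0.793 RPM to 7.66, 6.83 and 4.98 RPM (1.79 ± 0.37). Sdhb went from 2.31, 1.51 and 1.85 RPM to 8.58, 10.4 and 7.19 RPM (1.75 ± 0.33). Ndufb11, another membrane-arm subunit, went from 1.15, 1.51 and 1.59 RPM to 6.44, 7.91 and 5.81 RPM (1.67 ± 0.35). In all 3 the lowest value at 2 h was above the highest nascent value.

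By complex, 23 of 35 complex I genes rose (median 1.01), 6 of 8 in complex III (1.11), 10 of 16 in complex V (1.00), 1 of 4 in complex II (Sdhb; median 0.73) and 4 of 16 in complex IV (0.46). Without the 7 tissue isoforms, 2 of the remaining 9 complex IV genes rose, Cox8a and Cox7c (median 0.51). Within complex I the members that rose included subunits of the electron path (Ndufv1 at 1.29, Ndufs7 at 1.22, Ndufs8 at 1.43) and accessory subunits (Ndufa12 at 1.59, Ndufb6 at 1.42). Ndufs1 (0.24), also of the electron path, and Ndufs3 (0.69) did not pass. Within complex V the rotor subunits Atp5g1 (1.53), Atp5e (1.64) and Atp5c1 (1.44) rose. Atp5d, which is also part of the rotor, had 0.60 and did not pass.

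Members were also ordered by mean level. In nascent DMSO chromatin Atp5b was highest at 6.75 ± 2.43 RPM (SD, n = 3), followed by Ndufs8 at 6.06 ± 1.82 and Ndufa2 at 5.50 ± 0.94, which do not differ beyond their spread. At 2 h Ndufs8 was highest at 17.8 ± 2.72 RPM, followed by Atp5g1 at 15.0 ± 1.87 and Cox8a at 14.4 ± 2.50, again within their spread. The lowest at 2 h were Cox6a2 (0.406 RPM), Cox7b2 (0.711) and Cox6c (0.833).

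**Figure D2:**
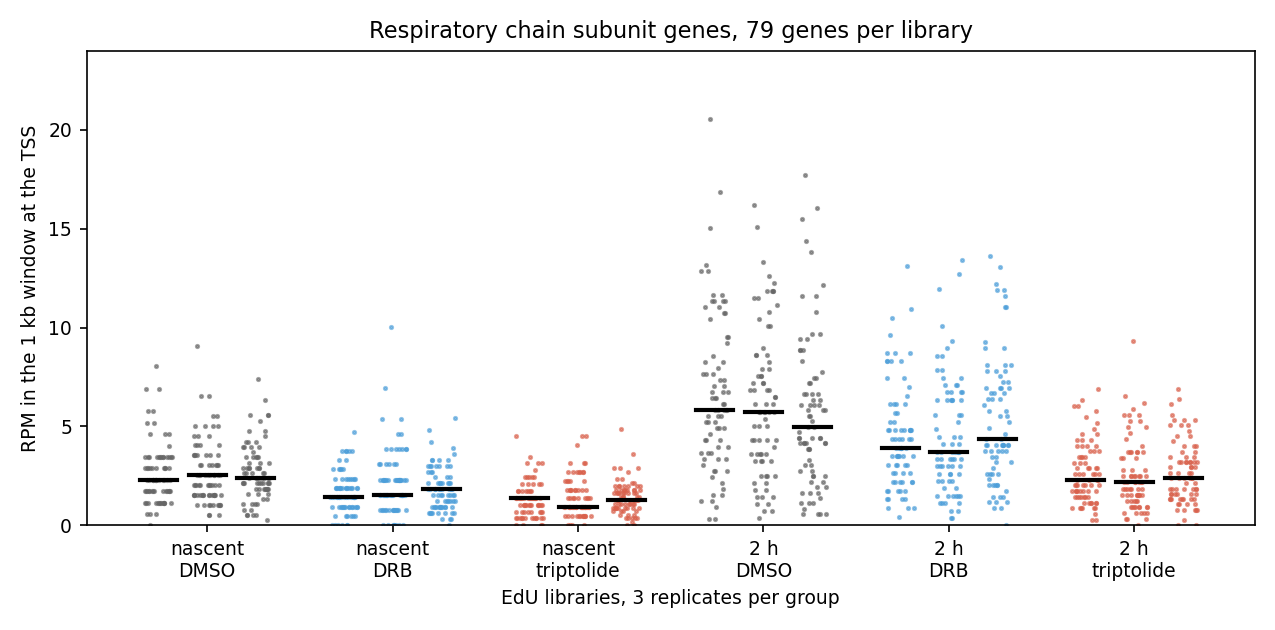
RPM in the 1 kb window at the TSS (vertical) of the 79 members in each of the 18 EdU libraries (horizontal, 3 replicates per group); points are genes and black bars the median of a library. Medians sit between 2.31 and 2.52 in nascent DMSO, between 4.98 and 5.82 at 2 h in DMSO and between 2.17 and 2.39 at 2 h in triptolide.

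The count depends on what the values are scaled to. With each library centred on its median TSS, 22 members rose and 1 fell (Cox4i2), and scaled to the background windows 67 rose. A limma-voom fit of recovered reads scaled over TSS windows called 4 higher (Sdhb, Ndufb7, Uqcrc1, Cox8a) and 2 lower (Cox4i2, Cox8b), and the same fit with library totals called 45 higher, 43 of them among the 44. Scaling over TSS windows moved the median of all TSS regions from 0.34 to -0.42, and the members' median was then 0.16.

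The spike-in experiment, made from other libraries, gave a rise as well. Its deposited values are per 5 kb region, and the sources used here do not say how the S2 reads entered them. The median member was at 5.17 and 6.02 in the nascent and at 6.70 and 6.63 in the 2 h libraries on the deposited log2 scale. Of 79 members 39 rose and 0 fell, with a median of 1.23, against 30.1% of all TSS regions that rose, with a median of 0.79. Of the 44 members called in DMSO 31 were called here (70.5%), which is 79.5% of the 39, and over all TSS regions the shares were 69.4% and 70.0%. The call rests on few libraries. Without nascent replicate 2 the count was 73, and without either 2 h library it was 0. With the replicate number as a block it was also 0.

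In nascent chromatin some member promoters were lower with triptolide. The median member was at 1.39, 0.905 and 1.26 RPM in triptolide, below all 3 DMSO libraries. Of 79 members 15 fell and 0 rose (median log2 difference -0.60), against 11.6% of all TSS regions that fell (median -0.23). The 15 were 8 complex I, 2 complex II, 2 complex III and 3 complex V genes, and none of 16 complex IV genes fell (0 also at an unadjusted p under 0.05 among the 9 without tissue isoforms). The mean RPM of background windows was 0.330 to 0.339 in triptolide and 0.307 to 0.308 in DMSO. The summed RPM of stem cell markers was 15.7 to 20.8 in triptolide and 25.7 to 27.1 in DMSO, without overlap, while the sums of the 4 other marker lists overlapped between the groups. Their part in the result was not tested.

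Uqcr10, a small subunit of complex III, was at 2.88, 5.55 and 2.38 RPM in DMSO and at 0.696, 0.453 and 0.360 RPM in triptolide (log2 difference -1.56 ± 0.35, adjusted p = 0.00087). Uqcrh was at 3.46, 5.55 and 3.17 RPM and at 0.348, 0.905 and 0.900 RPM (-1.55 ± 0.33, adjusted p = 0.00045). In both, the DMSO values are above all triptolide values. Atp5pb, of the peripheral stalk of complex V, was at 2.88, 3.03 and 2.91 RPM and at 0.348, 0 and 1.08 RPM (-1.48 ± 0.36). Its TSS region lay 836 bp from the gene start, which the window does not hold. Sdhd, a membrane anchor of complex II, was at 3.46, 2.02 and 3.97 RPM and at 0.348, 0.905 and 0.360 RPM (-1.42 ± 0.35). Ndufs6, an accessory subunit at the NADH end of complex I, was at 4.04, 2.02 and 5.29 RPM and at 1.04, 0.453 and 1.26 RPM (-1.28 ± 0.33), and missed the threshold without nascent DMSO replicate 3 (adjusted p = 0.056). These groups do not overlap either. These values rest on 0 to 20 reads per library. Uqcr10, Uqcrh, Atp5pb and Sdhd each share the window with a gene on the other strand. Centred on the median TSS, 8 members fell, and the limma-voom fit scaled over TSS windows called 0 while that with library totals called 14.

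With DRB fewer members passed in nascent chromatin. The median member was at 1.42, 1.54 and 1.82 RPM, and 6 of 79 fell while 0 rose (median -0.33), against 3.37% of all TSS regions that fell. The sum of stem cell markers was 14.7 to 20.8 RPM and the background mean 0.341 to 0.354 RPM with DRB, and their part was not tested. Sdhd fell to 0.946, 0 and 0.907 RPM (-1.39 ± 0.35, adjusted p = 0.012) and Uqcr10 to 1.89, 0 and 1.21 RPM (-1.25 ± 0.35, adjusted p = 0.025). Cox7a2l was at 3.46, 1.51 and 2.65 RPM in DMSO and at 0.946, 0 and 0.907 RPM in DRB (-1.15 ± 0.36). Ndufv2, an iron-sulfur subunit of complex I, was at 6.92, 4.04 and 3.97 RPM and at 1.42, 1.54 and 2.12 RPM (-1.12 ± 0.31), and Uqcrh was at 1.42, 2.31 and 0.605 RPM in DRB (-1.08 ± 0.33). The sixth was Ndufv1 (-1.06 ± 0.32). All 6 calls rest on single libraries. Sdhd missed the threshold without nascent DMSO replicate 3 or DRB replicate 2, Uqcr10 without DMSO replicate 2 or DRB replicate 2, Cox7a2l without DMSO replicate 1 or 3 or DRB replicate 2, and Ndufv2 without DMSO replicate 1 or DRB replicate 1. Uqcrh and Ndufv1 each missed it without any 1 of the 6 libraries other than DRB replicate 2. Adjusted p was between 0.053 and 0.22 in these fits. The count was 3 without nascent DMSO replicate 2, 2 without nascent DMSO replicate 3 and 3 without nascent DRB replicate 2. It was 1 (Sdhd) centred on the median TSS and 0 in both limma-voom fits. The direct comparison of triptolide with DRB in nascent chromatin called 0 of 79 members in limma (13 at an unadjusted p under 0.05, 11 of them lower in triptolide), with 0.664% of all TSS regions called. The median difference between the drugs was -0.22. The count was 2 without nascent DRB replicate 1, 1 without nascent DRB replicate 3, and 0 with limma-voom scaled over TSS windows.

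At 2 h the triptolide samples stood apart from DMSO. The median member was at 2.30, 2.17 and 2.39 RPM, less than in any DMSO library at 2 h. In RPM this was in the range of the nascent DMSO values or just below. The mean of the members was 10.9 to 11.0 times the background at 2 h in triptolide and 27.0 to 35.2 times in DMSO. In nascent chromatin that mean was 3.99 to 4.30 times the background in triptolide and 8.58 to 8.76 times in DMSO. Of 79 members 45 fell (median -0.96), against 28.6% of all TSS regions (median -0.29), and 1 rose, against 2.72%. Marker sums were lower as well, at 40.6 to 44.4 RPM for stem cells (77.4 to 86.0 in DMSO), 6.83 to 11.4 for primitive endoderm (17.5 to 22.7), 11.5 to 14.6 for trophectoderm (15.9 to 19.6), 13.8 to 16.5 for fibroblasts (20.5 to 23.9) and 15.3 to 20.8 for neural or germ layer cells (30.4 to 33.1). The mean RPM of background windows was 0.232 to 0.244, against 0.184 to 0.210 in DMSO. The part of either in the result was not tested. In complex V 14 of 16 genes fell (median -1.09), in complex III 6 of 8 (-1.62), in complex I 20 of 35 (-0.90), in complex II 2 of 4 (-0.88) and in complex IV 3 of 16 (-0.31), which were Cox8a, Cox6b2 and Cox5b.

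Ndufs8 was at 20.5, 15.1 and 17.7 RPM in DMSO and at 1.73, 3.73 and 2.92 RPM in triptolide (-2.33 ± 0.30, adjusted p = 1.8e-10). Ndufv1, the subunit that binds NADH and FMN, was at 9.50, 12.6 and 12.2 RPM and at 2.59, 1.24 and 1.86 RPM (-2.12 ± 0.32, adjusted p = 2.9e-08). Both are on chromosome 19, with windows at chr19:3912001-3913000 and chr19:4012501-4013500. Uqcrc2, a core protein of complex III, was at 11.3, 6.83 and 7.47 RPM and at 0.864, 1.86 and 1.33 RPM (-2.01 ± 0.33). Uqcrq, a small complex III subunit whose promoter is shared with Gdf9, was at 7.36, 6.12 and 13.8 RPM and at 2.02, 0.931 and 1.33 RPM (-2.01 ± 0.32). Sdhb was at 1.44, 2.17 and 1.33 RPM in triptolide (-1.88 ± 0.33), about its nascent DMSO level in RPM. In all 5 genes every DMSO value was above every triptolide value.

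The member that rose was Cox4i2, an isoform of a regulatory complex IV subunit used in lung and under low oxygen (window chr2:152753501-152754500). It was at 2.76, 2.52 and 0.553 RPM in DMSO and at 6.91, 9.31 and 6.91 RPM in triptolide (1.66 ± 0.34, adjusted p = 3e-05), where it had the highest mean of all 79 members, 7.71 ± 1.39 RPM (SD, n = 3; 80 reads in all). In nascent chromatin it was at 2.31, 3.03 and 3.97 RPM in DMSO and at 3.13, 4.53 and 3.60 RPM in triptolide, where the groups overlap (adjusted p = 0.74). At 2 h in DRB it was at 2.19, 2.24 and 4.93 RPM, below the triptolide libraries (1.13 ± 0.34 higher in triptolide, adjusted p = 0.011).

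**Figure D3:**
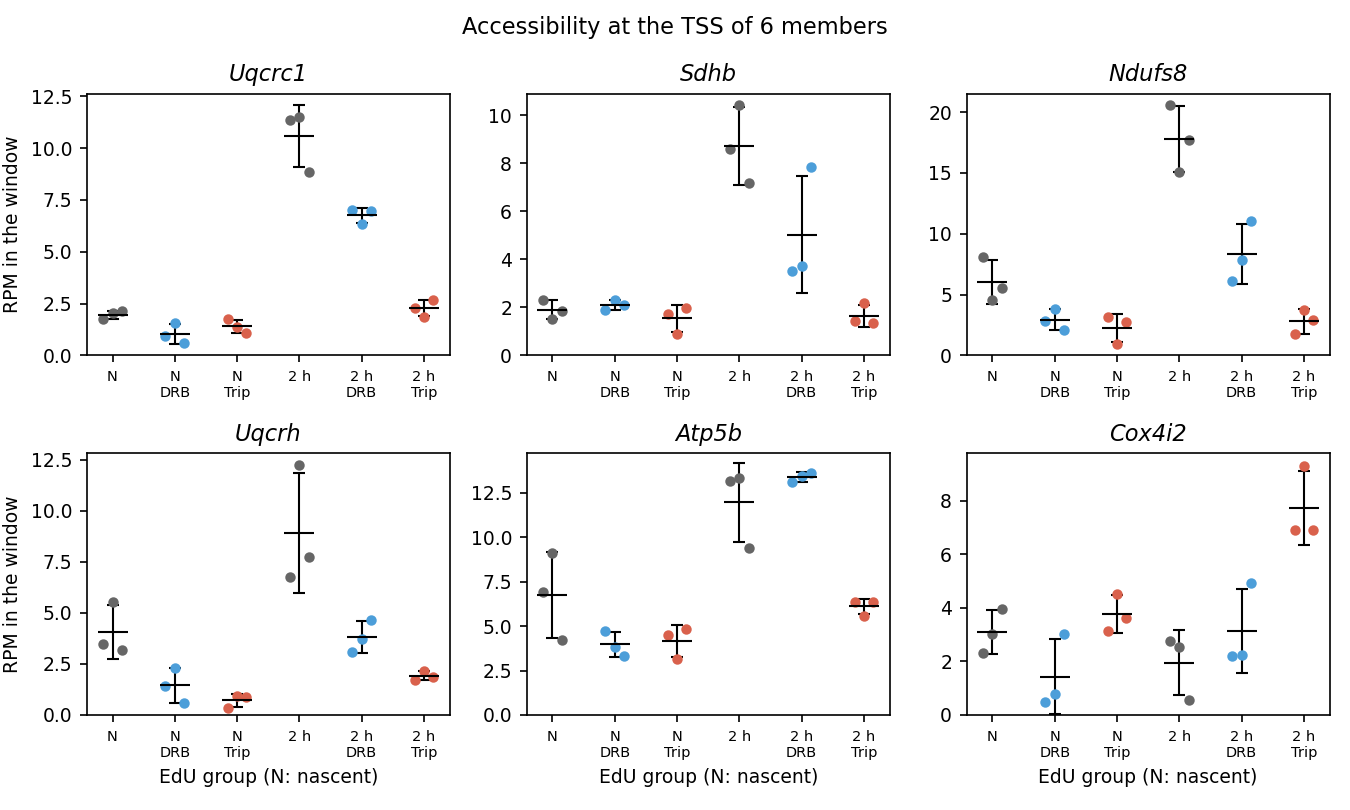
RPM in the window at the TSS (vertical) of 6 members in the 6 EdU groups (horizontal; N is nascent, Trip is triptolide, and labels without a drug are DMSO); points are libraries, bars the mean with the SD of 3 libraries. Uqcrc1, Sdhb, Ndufs8 and Uqcrh are highest at 2 h in DMSO, Atp5b is at similar levels in DRB and DMSO at 2 h, and Cox4i2 is highest at 2 h in triptolide.

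Other scalings changed the number of members that fell in triptolide at 2 h and not the call of Cox4i2. Centred on the median TSS, 25 fell and 2 rose (Cox4i2 and Ndufs1, a core complex I subunit that shares its promoter with Eef1b2). The limma-voom fit scaled over TSS windows gave 12 lower and 3 higher (with Cox8b), with a median of -0.22 in members and 0.31 over all TSS regions, and that with library totals 47 lower and 1 higher. Leaving out single libraries gave 36 to 43 calls.

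With DRB at 2 h no member passed the threshold. The median member was at 3.93, 3.73 and 4.35 RPM, below each DMSO library, with a median difference of -0.28. The count was 0 of 79 in limma (22 at an unadjusted p under 0.05, 20 of them lower), with 0.822% of all TSS regions called. The limma-voom fit called 1 higher (Ndufa4) scaled over TSS windows and 5 lower with library totals (Ndufb7, Ndufv1, Uqcrh, Ndufs8 and Atp5e), and scaling to background windows gave 13 lower. Without 2 h DRB replicate 3 the count was 2. Ndufs8 was at 6.12, 7.84 and 11.0 RPM in DRB, below its 3 DMSO values (-1.03, 95% interval -1.63 to -0.44, adjusted p = 0.068). Atp5b was at 13.1, 13.4 and 13.6 RPM in DRB and at 13.2, 13.3 and 9.40 RPM in DMSO. Set against each other at 2 h, 23 members were lower in triptolide than in DRB and 1 was higher (Cox4i2), with 14.8% and 1.21% of all TSS regions, and a median difference of -0.62. Without 2 h triptolide replicate 2 the calls were 15. They were 9 when centred on the median TSS and 2 with limma-voom scaled over TSS windows (Uqcrc2 lower, Cox4i2 higher). These comparisons share the DMSO or the triptolide libraries, so their counts are not independent of each other.

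**Figure D4:**
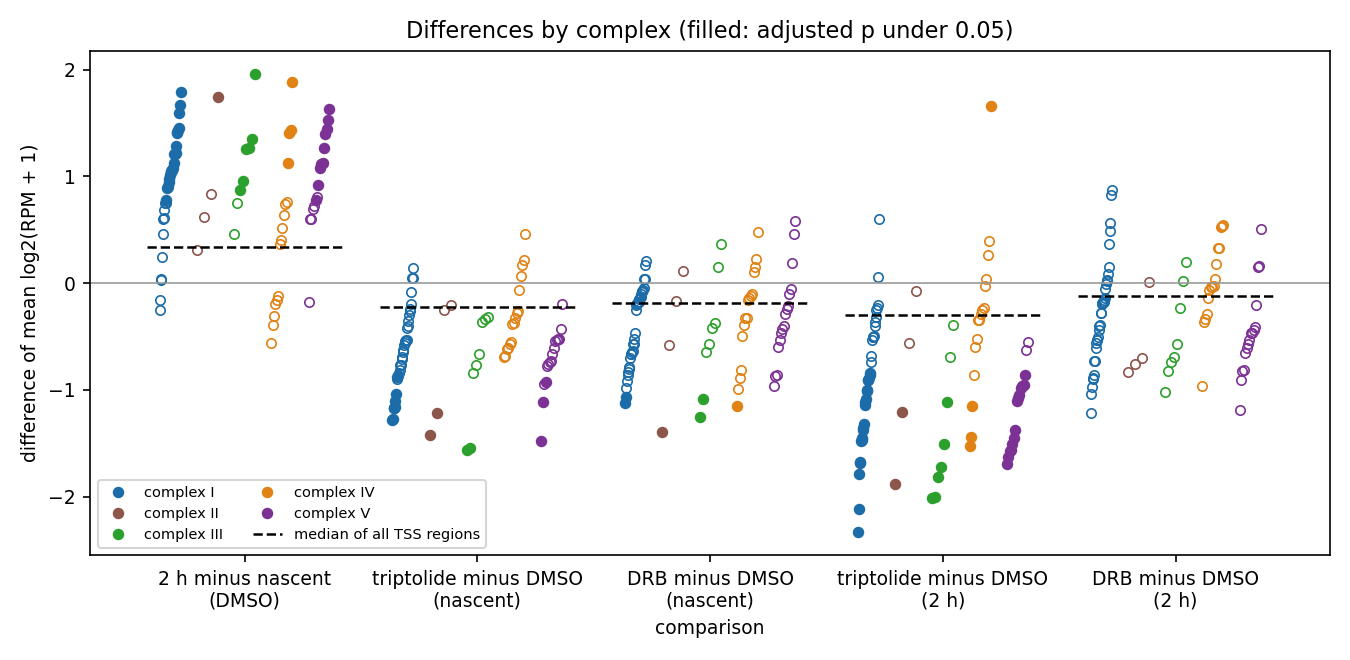
Difference of mean log2(RPM + 1) (vertical) of each member in the 5 main comparisons of EdU libraries (horizontal), in columns by complex; filled points passed an adjusted p of 0.05, and dashed lines are the median of all TSS regions. The median of all TSS regions is 0.34 for the gain at 2 h and -0.29 for triptolide at 2 h, and the filled point above 0 in that comparison is Cox4i2.

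Gains over 2 h also appeared in the drug-treated cells, in libraries separate from those in DMSO. With DRB 49 of 79 members rose and 0 fell (median 1.04), against 35.1% of all TSS regions. Centred on the median TSS 25 rose, and limma-voom scaled over TSS windows called 2 higher (Uqcrc1, Atp5g1) and 2 lower (Cox8b, Atp5j). With triptolide 14 rose and 0 fell (median 0.48), against 14.1%. Of the 44 members called in DMSO 37 were called in DRB (84.1%) and 11 in triptolide (25.0%), and for all TSS regions these shares were 80.3% and 37.0%. In triptolide the members that rose included Cox7c (1.44 ± 0.31), Ndufa3 (1.31 ± 0.30), Ndufs4 (1.29 ± 0.33) and Sdha, the flavoprotein of complex II (1.28 ± 0.34). No complex V gene passed there, against 10 of 16 in DMSO. The count was 8 without nascent triptolide replicate 3 and also 8 without 2 h triptolide replicate 3. It was 5 centred on the median TSS, 0 with limma-voom scaled over TSS windows, 15 with library totals, 22 over 3 neighbouring windows and 39 scaled to background windows.

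The difference between gains was tested directly. For triptolide minus DMSO the median was -0.33, and 0 of 79 members passed in limma (12 at an unadjusted p under 0.05, 11 of them lower), with 0.45% of all TSS regions called. Sdhb (-1.68 ± 0.46, adjusted p = 0.062) and Cox8a (-1.59 ± 0.42, adjusted p = 0.053) were nearest to the threshold. Without nascent DMSO replicate 3 the count was 1, and with the replicate number as a block Cox8a passed. The limma-voom fit scaled over TSS windows also called 0, and there the median was 0.07, of the other sign. For DRB minus DMSO the median was 0.07, and 0 members passed (8 at an unadjusted p under 0.05, 4 in each direction; 0 with limma-voom), with 0.0201% of all TSS regions. For no single member was the gain shown to differ between a drug and DMSO in this fit.

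The unbound fraction holds mostly chromatin that was not replicated during the pulse. In DMSO the median member was at 5.53 to 5.68 RPM in nascent and at 5.25 to 5.57 RPM in 2 h samples, and 0 of 79 members passed in limma (4 lower at an unadjusted p under 0.05; 0 with limma-voom), with 0% of all TSS regions. The gain over 2 h was larger in EdU than in unbound chromatin for 44 members and smaller for 0 (median 0.94), against 28.8% of all TSS regions. At Uqcrc1 this difference was 2.13 ± 0.30. It was called in 29 members when centred on the median TSS and in 4 with limma-voom scaled over TSS windows (Uqcrc1, Sdhb, Cox8a and Ndufs8).

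Triptolide lowered few members in the unbound fraction of nascent samples. Ndufs8 and Cox8a fell, 2 of 79, against 1.53% of all TSS regions. With limma-voom scaled over TSS windows Ndufs4 and Ndufb3 were called higher beside these 2. Ndufs8 was at 19.0, 17 and 19.5 RPM in DMSO, at 11.2, 9.37 and 9.75 RPM in triptolide (-0.81 ± 0.13, adjusted p = 3.2e-05) and at 13.2, 11.6 and 11.1 RPM in DRB (-0.59 ± 0.13, adjusted p = 0.012). It was the only member that DRB lowered there, with 0.637% of all TSS regions. The count for triptolide was 1 without nascent DMSO unbound replicate 2 or nascent triptolide unbound replicate 3. That for DRB was 0 without nascent DRB unbound replicate 2 or replicate 3, and 2 without nascent DMSO unbound replicate 1. The effect of triptolide in nascent samples was more negative in EdU than in unbound chromatin for 12 members, against 7.09% of all TSS regions, with a median of -0.62. Atp5pb (-1.64 ± 0.40), Ndufc2 (-1.52 ± 0.46) and Ndufv2 (-1.52 ± 0.33) had the largest differences. The count fell to between 5 and 7 without nascent DMSO unbound replicate 2 or 3 or nascent triptolide unbound replicate 1 or 2, and to 1 (Ndufv2) when centred on the median TSS.

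At 2 h the triptolide samples were also lower in unbound chromatin. The median member was at 4.03 to 4.72 RPM in triptolide and 5.25 to 5.57 RPM in DMSO. Of 79 members 15 fell and 0 rose (median -0.22), against 12.2% of all TSS regions. With limma-voom scaled over TSS windows Ndufs4 (0.51 ± 0.18) and Cox6c (0.89 ± 0.32) were called higher. Ndufs8 was at 15.5, 15.5 and 16 RPM in DMSO and at 6.91, 9.32 and 7.10 RPM in triptolide (-0.94 ± 0.13, adjusted p = 6.6e-07), the largest fall, followed by Atp5j2 (-0.85 ± 0.18), Cox8a (-0.81 ± 0.14) and Atp5g1 (-0.80 ± 0.15). Cox4i2 was at 2.2, 3.84 and 2.35 RPM in DMSO and at 3.11, 3.28 and 4.17 RPM in triptolide (0.27 ± 0.21, adjusted p = 0.47). With DRB at 2 h Ndufa4 was higher (0.56 ± 0.15) and Atp5j2 lower (-0.74 ± 0.18), with 1.48% of all TSS regions called. With limma-voom scaled over TSS windows 7 were called, Atp5j2 and Ndufv1 lower and Ndufa4, Ndufs1, Sdha, Ndufb3 and Ndufa1 higher. That count of 2 was 0 without 2 h DMSO unbound replicate 1, 2 h DRB unbound replicate 1 or 2 h DRB unbound replicate 3, and 1 without any of the others.

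**Figure D5:**
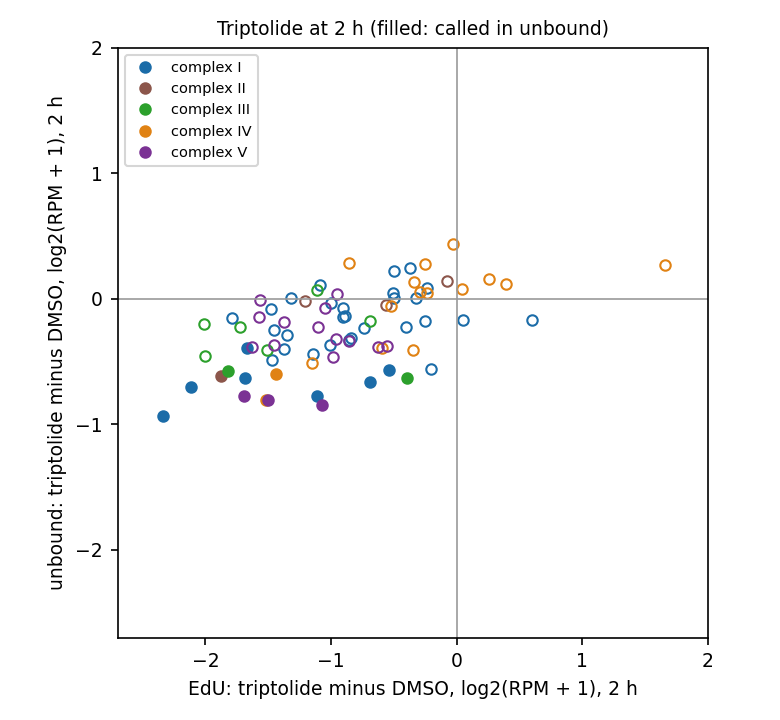
Difference between triptolide and DMSO at 2 h in log2(RPM + 1) of each member, in EdU chromatin (horizontal) and in unbound chromatin (vertical), on equal scales; colours are complexes, and filled points passed an adjusted p of 0.05 in unbound chromatin. The points spread from -2.33 to 1.66 in EdU and from -0.94 to 0.43 in unbound chromatin, with Ndufs8 lowest in both.

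Members with an S5P peak and those without were set side by side. Over all TSS regions 28.6% fell with triptolide at 2 h. With triptolide at 2 h 21 of 29 with a peak fell (median -1.11), and 24 of 50 without one fell (median -0.85). Over all TSS regions the medians were -1.04 with and -0.15 without an S5P peak. Of the 62 members with a nascent peak 40 fell (median -1.06), and of the 17 without 5 did (median -0.54). Members with and without a divergent coding gene gave 19 of 28 (median -1.04) and 26 of 51 (-0.88). With ETS letters 11 of 16 fell (median -1.34) and without them 27 of 49 (-0.90). With NRF1 letters 6 of 10 fell (-0.93) and without them 32 of 55 (-0.996). These groups were formed from the members, share levels and promoters, and carry no test.

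The 7 tissue isoforms of complex IV gave mixed values in these stem cells. Cox6b2, a testis isoform, was at 2.88, 6.56 and 2.38 RPM in nascent DMSO and at 11.0, 11.9 and 11.6 RPM at 2 h, with an S5P peak, and fell to 3.17, 3.73 and 3.99 RPM with triptolide at 2 h. Cox7a1, a muscle isoform, was at 1.15, 2.02 and 3.44 RPM and at 5.52, 7.55 and 4.42 RPM. Both rose, and these levels are in the range of the common subunits. Cox8b was at 2.31, 2.02 and 2.12 RPM and at 2.15, 1.08 and 1.11 RPM. Cox8c, of testis, was at 1.15, 1.01 and 0.529 RPM and at 2.45, 2.52 and 1.66 RPM. Cox7b2 was at 1.15, 1.01 and 1.06 RPM and at 0.306, 0.719 and 1.11 RPM. Cox6a2, of muscle, was at 1.15, 0.505 and 0.265 RPM and at 0.306, 0.360 and 0.553 RPM, with 4 reads in each group. It was listed at 0 in the 3 nascent triptolide libraries, where a count of 0 allows up to 3 reads. Cox7b2 and Cox6a2 were at 1.15 RPM or less in all 6 of these DMSO libraries.

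Other genes of the pathway were compared from lists by function. Of 45 assembly factors, which build the complexes, 30 rose over 2 h in DMSO (median 1.02) and 28 fell with triptolide at 2 h (median -1.18). Of 6 electron carriers and cytochromes 5 rose and 6 fell (1.19 and -1.20). Of 15 citric acid cycle genes 10 rose and 9 fell (1.25 and -0.98). Of 15 regulators of mitochondrial genes 11 rose and 12 fell (1.00 and -1.42). Mitochondrial ribosomal proteins gave 38 and 36 of 69 (0.90 and -0.89), and cytosolic ribosomal proteins 33 and 48 of 78 (0.75 and -1.11). No gene of the first 5 lists fell over 2 h or rose with triptolide, and 1 cytosolic ribosomal protein gene rose with triptolide. Over all TSS regions 31.2% rose over 2 h in DMSO and 28.6% fell with triptolide at 2 h. With triptolide in nascent chromatin 17 of 45 assembly factors, 3 of 6 carriers and cytochromes and 5 of 15 citric acid cycle genes fell. So did 11 of 15 regulators, 17 of 69 mitochondrial and 33 of 78 cytosolic ribosomal protein genes. Beside these stand 15 of 79 respiratory chain genes and 11.6% of all TSS regions. The comparisons share DMSO libraries, so their values stand side by side and are not independent.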

How the data were processed

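The authors deposited log2 values of read density in 1 kb windows at steps of 500 bp over the genome for 36 EdU and unbound libraries (the windows nearest to TSS regions and 20000 background windows were used), log2 values per 5 kb region for 4 spike-in libraries, and peak positions as 1 list per group. Trim Galore 0.4.2, Bowtie2 2.2.6.2 and the build mm10 are named in the submitters' processing notes. No source used here names the peak caller. Deposited log2 values are log2(RPM + 1), as the low values show. Undoing the log gave RPM, and dividing by the RPM of 1 read gave whole reads for 100% of values within 0.1 read. No library was a copy of another.

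A member was paired with the TSS region nearest to its start within 1000 bp. For Atp5pb and Atp5g2 that region lay 836 and 819 bp away, and the window does not hold the gene start. limma 3.58.1 (R 4.3.3, trend, moderated test) was fitted to log2(RPM + 1), with no further pseudocount, over all TSS windows with a read in 3 or more libraries (spike-in: 2 or more). P-values were adjusted by Benjamini-Hochberg over all of them, with 0.05 as the threshold. EdU groups shared 1 fit, and unbound groups another. Means are given with SD, differences with SE.

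Members named by rule were the 5 with the largest change past the threshold in each direction of the main EdU comparisons. Also named were the member with the highest mean in each complex, members at 0 in a whole group and the tissue isoforms. Their values in single libraries are given for some of the groups only. Other members named were chosen after their values were seen. The members and lists were chosen with earlier results of these data known. The fit was tried on simulated data with the read depths of the nascent and 2 h DMSO EdU libraries. These data held no shift in scaling between groups, so they do not test the choice of scaling. Alternatives were another pseudocount (0.25), other filters, centring on the median TSS, scaling to background windows, 3 neighbouring windows, limma-voom on recovered reads, a replicate block and leaving out each library. The limma-voom fit with library totals was chosen after seeing the data.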

Additional observations from a re-analysis of the deposited data

Results flagged for a closer look

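In DMSO the gain over 2 h differed between EdU and unbound chromatin, by a test of the difference itself, in 44 of 79 members, all with the larger gain in EdU chromatin, and in 28.8% of all TSS regions. With limma-voom scaled over TSS windows the count was 4, and 29 when centred on the median TSS. The fit took EdU and unbound libraries as independent, with no term for a shared sample. The members' median was 2.31 to 2.52 RPM in nascent and 4.98 to 5.82 RPM in 2 h EdU libraries, and 5.25 to 5.68 RPM in the 6 unbound libraries.

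In nascent samples the effect of triptolide differed between the same fractions in 12 members, all more negative in EdU chromatin, and in 7.09% of all TSS regions. It was 1 when centred on the median TSS and 0 with limma-voom scaled over TSS windows. The members' median was 0.905 to 1.39 RPM in triptolide EdU libraries and 5.43 to 5.96 RPM in triptolide unbound libraries. The fractions also differed in nascent DMSO samples, at 2.31 to 2.52 RPM in EdU and 5.53 to 5.68 RPM in unbound libraries.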

How the results depend on the processing

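Counts are members called of 79. Centred on the median TSS they were 23 for the gain in DMSO, 25 in DRB, 5 in triptolide and 29 for EdU minus unbound; for triptolide 8 nascent, 27 at 2 h and 1 for EdU minus unbound; for DRB 1 nascent and 1 in unbound 2 h; and 9 for triptolide against DRB at 2 h. With limma-voom scaled over TSS windows they were 6 (4 higher), 4 (2 higher), 0 and 4 for these gains, 0, 15 and 0 for triptolide, 4 (2 higher) for triptolide in nascent unbound, 0 for DRB nascent, 1 at 2 h, 2 in nascent and 7 (5 higher) in 2 h unbound, and 2 for triptolide against DRB at 2 h. For triptolide in 2 h unbound, limma-voom scaled over TSS windows also called Ndufs4 and Cox6c higher. With library totals DRB gave 0 nascent and 5 at 2 h. Scaled to background windows, the gains were 67 in DMSO and 39 in triptolide, and DRB at 2 h gave 13. Over 3 windows the gain in triptolide was 22 and DRB at 2 h 3, and with a mean RPM of at least 0.5 DRB at 2 h gave 1.

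Deviations from the group means correlated weakly between same-numbered libraries, which does not exclude a pairing by replicate number. The correlations were -0.02 to 0.05 in EdU libraries (other numbers: median -0.01). In unbound libraries they were -0.02 to 0.17, with medians of 0.06 for the same and -0.03 for other numbers. Replicate 3 was the deepest library in every group of the inhibitor experiment. The replicate block gave 0 in the spike-in and 1 for the gain in triptolide minus DMSO, and no other count moved by over 1.5 times.

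Leaving out 1 library gave 33 to 43 for the gain in DMSO, 37 to 50 in DRB, 8 to 14 in triptolide, 34 to 45 for EdU minus unbound, 0 to 0 in unbound and 0 to 73 in the spike-in. It gave 11 to 16 for triptolide nascent, 36 to 43 at 2 h, 1 to 2 and 11 to 20 in unbound, and 5 to 12 for EdU minus unbound. DRB gave 2 to 7 nascent, 0 to 2 at 2 h, and 0 to 2 and 0 to 1 in unbound. Triptolide against DRB gave 0 to 2 nascent and 15 to 21 at 2 h, and the differences in gain 0 to 1 (triptolide) and 0 to 0 (DRB). The cause of these shifts was not tested. No named member reversed, while 24 results of named members under other settings and 15 without 1 library lost the call. With 2 to 19 reads in the median member's window, small changes at single genes are beyond the depth of EdU libraries.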
